A study of Mus musculus with 6 samples.

Results

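The nuclear genes of the mitochondrial respiratory chain and ATP synthase were compared between HDAC10-/- and WT T-regulatory cells (Treg). A gene was taken when a probe set of the array was annotated to exactly 1 symbol that starts with Nduf, Uqcr, Cox4, Cox5, Cox6, Cox7, Cox8 or Atp5, or is Sdha, Sdhb, Sdhc, Sdhd, Cyc1 or Cycs. This gave 104 probe sets for 91 genes, of 22180 genes with 1 symbol on the array, and the probe set with the highest mean over the 6 arrays stood for each gene. There were 42 genes of complex I, 4 of complex II, 9 of complex III, 1 for cytochrome c, 17 of complex IV and 18 of ATP synthase. Of the 91 genes 89 are protein-coding and 2, Atp5c1-ps and Uqcrh-ps1, are pseudogenes. The array pairs Cox6c, Ndufb2, Ndufb4, Ndufs6 and Uqcr10 with several symbols each, and Ndufb1 had no probe set with that symbol alone in the annotation used here, so these genes are not among the members.

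Treg came from female HDAC10-/- mice of the strain B6N(Cg)-Hdac10tm1.1(KOMP)Mbp/J, which lack HDAC10 in every cell, and from female WT C57BL/6 mice. Both were 8 to 12 weeks old, and the substrain of the WT mice is not stated. Spleen and peripheral lymph nodes gave the CD4+CD25+ Treg, which were purified on magnetic beads. The 3 HDAC10-/- and 3 WT samples, which the labels call independent, had 1 Mouse Gene 2.0 ST array each, and the number of mice behind a sample is not stated. The authors deposited log2 signals after robust multiarray average (RMA) normalization, with 2 decimals and without detection calls. Array data have no read depth, and the number of arrays limits the precision.

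In the inner mitochondrial membrane, complex I takes electrons from NADH and complex II takes them from succinate. Complex III passes them to the small soluble carrier cytochrome c, and complex IV hands them to oxygen. Complexes I, III and IV pump protons, and ATP synthase lets the protons flow back through its membrane ring and uses the rotation to make ATP in its F1 head. Most subunits are encoded in the nucleus and a few in mitochondrial DNA. Treg are known to rely on oxidative phosphorylation more than activated conventional T cells do. The study asked whether loss of HDAC10 alters Treg bioenergetics, which it measured as oxygen consumption and acidification. Its text says that Treg were measured with and without co-stimulation, and its figure legend describes co-stimulated cells. The arrays give transcripts of the same pathway in Treg that the paper calls naïve, a different state from co-stimulated cells.

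Hdac10, the targeted gene, had log2 signals of 6.11, 6.22 and 6.22 in HDAC10-/- Treg and 9.03, 9.30 and 8.95 in WT Treg (log2 fold change −2.91, adjusted p = 1.4e-04, limma), so every array carried the Hdac10 level of its label. Treg markers were present, with a mean log2 signal over 8 genes of 11.5 to 11.6 in the HDAC10-/- arrays and in the WT arrays, and 0 of the 8 passed the test. Most markers of other cells were higher in the HDAC10-/- arrays. For macrophages and monocytes 7 of 10 markers passed the test upwards (mean log2 signal 7.21 to 7.43 in HDAC10-/- Treg and 6.45 to 6.49 in WT Treg). So did 6 of 8 neutrophil markers (6.27 to 6.60 in HDAC10-/- Treg, 5.45 to 5.52 in WT Treg). For dendritic cells, B cells, and CD8 and NK cells it was 3 of 5 markers each, and for cycling cells 2 of 5. These counts are at an adjusted p under 0.1 in limma, which 1.25% of all probe sets passed upwards. In the CD8 and NK list Cd8b1 (−0.05) and Klrb1c (−0.23) had log2 fold changes below 0. Of 6 T cell markers none passed the test, and their mean log2 signal was 11.85 to 11.87 in HDAC10-/- Treg and 11.94 to 11.97 in WT Treg. HDAC10-/- replicate 1 stood apart from the other HDAC10-/- arrays (Pearson r = 0.9952 and 0.9953 with them across probe sets, against 0.9968 between those). The part of the other cells and of that array in the differences below was not tested, beyond the values given without the array. In bulk RNA, fewer cells of a type cannot be told apart from less RNA per cell.

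No respiratory chain or ATP synthase gene passed both thresholds of the methods, 0.1 for the adjusted p and 1.5-fold for the difference, in limma with Benjamini-Hochberg adjustment over all 34472 probe sets. Of the 91 genes 0 were higher and 0 lower, where 0.424% of all probe sets were higher and 0.261% lower. Without the fold minimum 1 gene was lower, Atp5e, the epsilon subunit of the F1 stalk of ATP synthase, and 0 were higher (all probe sets: 0.757% lower, 1.25% higher). The call of Atp5e was lost when any 1 of the 6 arrays was left out. At an unadjusted p under 0.05, 10 of the genes were lower and 2 higher (all probe sets: 6.95% lower, 7.73% higher). Among probe sets brighter than the median 10.8% were lower and 8.56% higher at this threshold. All 3 HDAC10-/- arrays lay below all 3 WT arrays in 19 of the 91 genes and above them in 1. Over all probe sets these shares were 10.9% below and 9.89% above, and over probe sets brighter than the median, which hold 84 of the 91 genes, 17.6% below and 11.7% above. With 3 arrays per genotype the smallest p an exact two-sided permutation of the arrays can give is 0.1.

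The differences were small. For 86 of the 91 genes the log2 fold change (HDAC10-/- minus WT) was under 0.25 either way, which held for 90.6% of all probe sets. It ran from −0.42 for Atp5e to 0.32 for Cox6a2, the muscle isoform of a complex IV subunit. The 95% confidence interval lay within 1.5-fold either way for 88 of the 91 genes, all but Atp5e, Cox6a2 and Ndufb11, and within 0.25 log2 for 45. Standard errors ran from 0.053 for Ndufa8 to 0.16 for Ndufb11 with a median of 0.075.

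More of the differences were below 0 than above it. The log2 fold change was below 0 in 68 of the 91 genes, above 0 in 22 and exactly 0 in Ndufaf4, with a median of −0.057. Over all probe sets 49.1% were below 0 and 49.9% above it with a median of 0, over genes with 1 symbol 50.3% with a median of −0.0033, and over probe sets brighter than the median 56.1% with a median of −0.02. When each gene was centred on its mean over the 6 arrays, the members averaged −0.019, −0.043 and −0.024 on the log2 scale in HDAC10-/- replicates 1, 2 and 3, and 0.053, 0.0092 and 0.024 in WT replicates 1, 2 and 3. The HDAC10-/- arrays were thus the 3 lowest, and WT replicate 2 was the nearest to them. The same means over the 7385 genes with a mean signal over 8 were −0.023, −0.018 and −0.0056 in HDAC10-/- Treg and 0.015, 0.017 and 0.015 in WT Treg, so other bright genes were lower in the HDAC10-/- arrays as well, by 0.031 against 0.058 for the members.

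**Figure D1:**
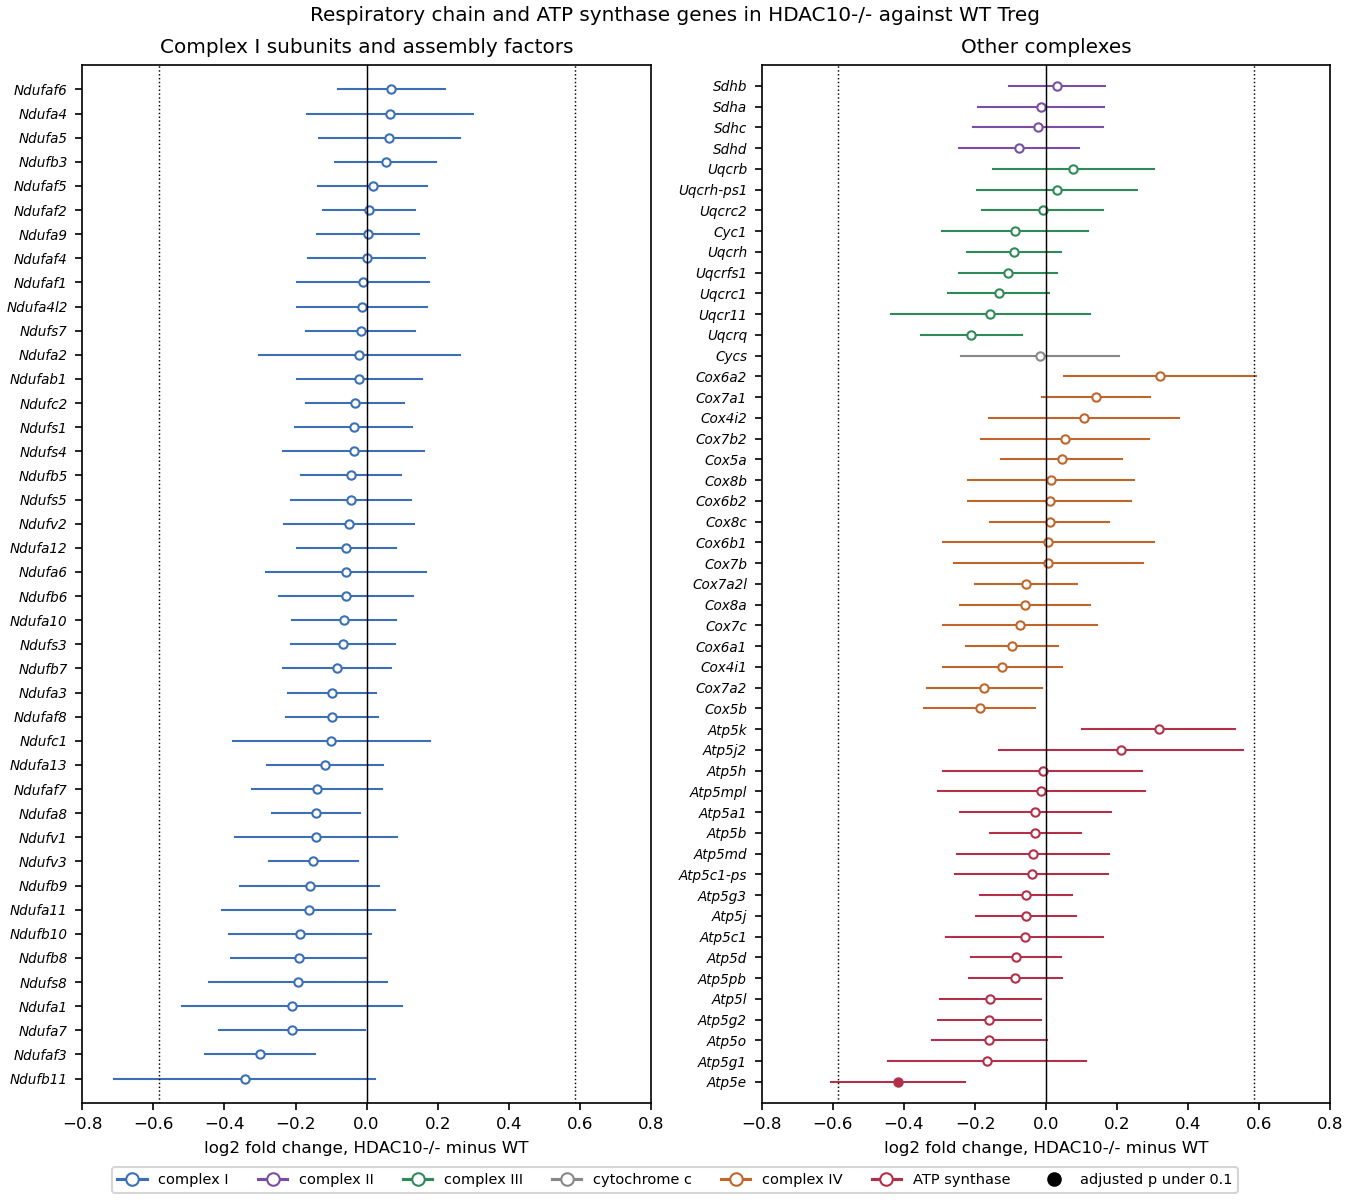
Log2 fold change (HDAC10-/- minus WT, x axis) of the 91 genes, 1 row per gene, coloured by complex; lines are 95% confidence intervals from limma with 3 arrays per genotype, and dotted lines mark 1.5-fold. Only Atp5e is filled (adjusted p under 0.1), and 68 of the 91 points lie left of 0.

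Complex I was the largest group. Of its 42 genes 34 had a log2 fold change below 0, with a median of −0.057, and in 7 (16.7%) all HDAC10-/- arrays lay below all WT arrays, near the 17.6% of probe sets brighter than the median. None was called at an adjusted p under 0.1. At an unadjusted p under 0.05, 4 of the 42 were lower. This held for 6.95% of all probe sets and 10.8% of those brighter than the median. The mean deviation over the complex was −0.037, −0.052 and −0.032 in HDAC10-/- replicates 1, 2 and 3 and 0.065, 0.021 and 0.035 in WT replicates 1, 2 and 3, without overlap.

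Ndufaf3, an assembly factor of complex I that is not part of the finished enzyme, had the smallest p of the complex. Its log2 signal was 9.32, 9.35 and 9.27 in HDAC10-/- Treg and 9.64, 9.68 and 9.52 in WT Treg, and the groups did not overlap. The log2 fold change of Ndufaf3 was −0.30 (standard error 0.065, n = 3 arrays per genotype) and it missed the threshold (adjusted p = 0.106, limma). The other 7 assembly factors named Ndufaf had log2 fold changes of −0.14 for Ndufaf7 to 0.07 for Ndufaf6, and over all 8 the median was −0.005.

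The accessory subunits, which surround the catalytic core, held the next smallest p-values. Ndufv3, a small subunit of the NADH-oxidizing arm, had log2 signals of 8.20, 8.22 and 8.21 in HDAC10-/- Treg and 8.37, 8.33 and 8.38 in WT Treg (log2 fold change −0.15, adjusted p = 0.265, limma). Ndufa8 had 9.55, 9.52 and 9.52 in HDAC10-/- Treg and 9.68, 9.68 and 9.66 in WT Treg (log2 fold change −0.14, adjusted p = 0.277). In both genes the replicates lay within 0.05 of each other, closer than the difference between the genotypes. Ndufa7 (−0.21), Ndufb10 (−0.19), Ndufa3 (−0.097) and the assembly factor Ndufaf8 (−0.097) were the other genes whose groups did not overlap. Ndufb11, on the X chromosome, had the lowest log2 fold change of the complex, −0.34, but its HDAC10-/- arrays were spread, at 6.70, 7.05 and 7.35 against 7.49, 7.27 and 7.37 in WT Treg, and overlapped them.

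The 6 measured core subunits, which belong to the minimal enzyme that moves electrons from NADH to quinone, all had a log2 fold change below 0, and none passed the test. The values were −0.19 for Ndufs8, −0.14 for Ndufv1, which carries the flavin, −0.067 for Ndufs3, −0.05 for Ndufv2, −0.037 for Ndufs1 and −0.017 for Ndufs7. Ndufs7 was above 0 without HDAC10-/- replicate 2 (0.012), without HDAC10-/- replicate 3 (0.0067) and after quantile normalization (0.049). Ndufs8, an iron-sulfur subunit, had log2 signals of 10.59, 10.20 and 10.24 in HDAC10-/- Treg and 10.58, 10.51 and 10.52 in WT Treg. HDAC10-/- replicate 1 alone lay at the WT level, and without that array Ndufs8 was lower (log2 fold change −0.32, adjusted p = 0.0786, limma), the only member called in that fit. With all arrays its adjusted p was 0.462.

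The 4 genes of complex II, succinate dehydrogenase, had log2 fold changes of −0.077 to 0.03. Sdha, the flavoprotein that oxidizes succinate, had log2 signals of 10.70, 10.93 and 10.89 in HDAC10-/- Treg and 10.89, 10.83 and 10.84 in WT Treg (log2 fold change −0.013). The iron-sulfur subunit Sdhb had a log2 fold change of 0.03, and the membrane anchors Sdhc and Sdhd had −0.023 and −0.077. The groups overlapped in all 4 genes, and the lowest adjusted p was 0.682 in limma. Each 95% interval lay within 0.25 log2 either way, the widest reach being −0.25 for Sdhd.

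Complex III had the lowest median of the complexes, −0.09 over 9 genes, of which 7 were below 0. Without HDAC10-/- replicate 2 its median was −0.067 and that of ATP synthase, at −0.076, was lower. In 4 genes (44.4%), Uqcrq, Uqcrc1, Uqcrfs1 and Uqcrh, all HDAC10-/- arrays lay below all WT arrays. This share was 10.9% over all probe sets and 17.6% over those brighter than the median. None of the 9 genes was called. Uqcrq, a small membrane subunit, had log2 signals of 8.10, 8.00 and 8.01 in HDAC10-/- Treg and 8.30, 8.21 and 8.23 in WT Treg. The genotypes were separated by more than the range within either, with a log2 fold change of −0.21 ± 0.061 (standard error) and an adjusted p of 0.186 in limma. Uqcrc1, a core protein on the matrix side, had 11.13, 10.99 and 11.08 in HDAC10-/- Treg and 11.20, 11.18 and 11.22 in WT Treg (log2 fold change −0.13). Its partner Uqcrc2 had a log2 fold change of −0.01, the Rieske iron-sulfur protein Uqcrfs1 −0.11, and cytochrome c1, Cyc1, −0.087.

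Uqcrb, a further complex III subunit, had a log2 fold change of 0.077 with all arrays and −0.032 without HDAC10-/- replicate 1. Its log2 signal was 11.61, 11.27 and 11.30 in HDAC10-/- Treg and 11.32, 11.29 and 11.34 in WT Treg. The mean deviation over the complex showed the same array apart, at 0.037, −0.092 and −0.06 in HDAC10-/- replicates 1, 2 and 3 and 0.028, 0.044 and 0.043 in WT replicates 1, 2 and 3. Cycs, cytochrome c itself, had log2 signals of 11.12, 10.80 and 10.81 in HDAC10-/- Treg and 10.94, 10.90 and 10.94 in WT Treg. The first HDAC10-/- array was the highest of all 6 and the other HDAC10-/- arrays the lowest, and the log2 fold change was −0.017 with all arrays (adjusted p = 0.957, limma) and −0.12 without HDAC10-/- replicate 1.

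**Figure D2:**
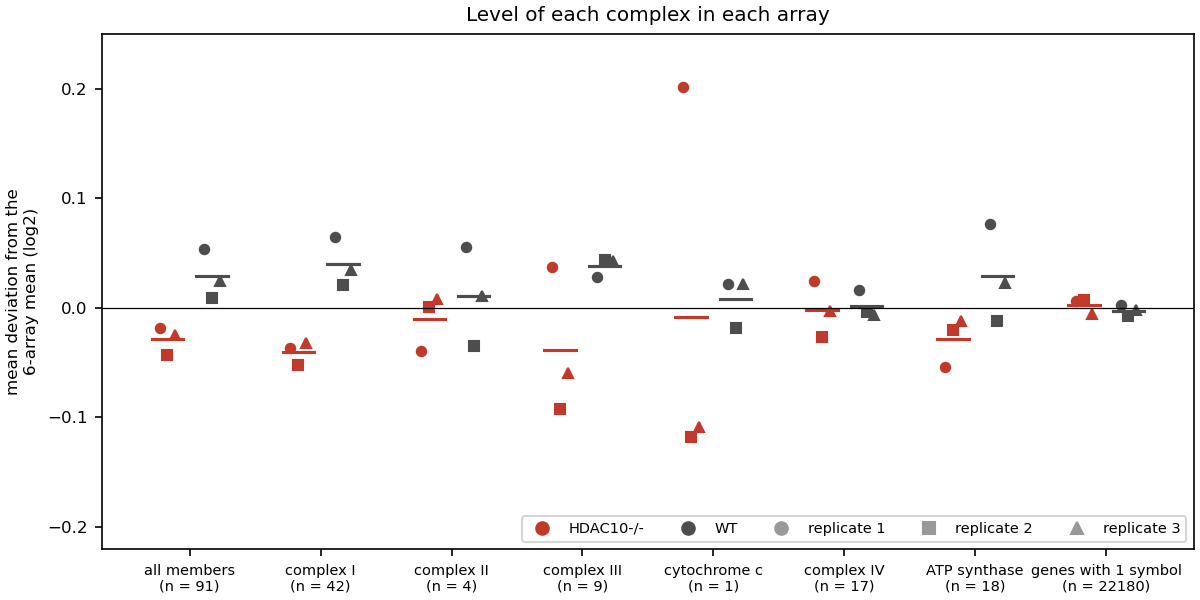
Mean deviation of the genes of each complex from their own 6-array means (log2 scale, y axis) in each array, with HDAC10-/- in red left of WT in grey, symbols for replicates 1 to 3 and bars for the group means. Over all members and over complex I the HDAC10-/- arrays lie below the WT arrays, while in complex III and cytochrome c HDAC10-/- replicate 1 lies apart from the other HDAC10-/- arrays.

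Complex IV holds usual subunits and isoforms known from single tissues. Over all 17 genes the median log2 fold change was 0.0067 and 7 were below 0. The median was −0.032 without HDAC10-/- replicate 1 and also without WT replicate 3, −0.012 without WT replicate 1, and 0.027 without HDAC10-/- replicate 2, so its sign depended on single arrays. It was also below 0 after quantile normalization (−0.017), after median centring (−0.027) and among brighter probe sets (−0.025). The 10 usual subunits had a median of −0.067 with 7 below 0. The 8 isoforms known from muscle, testis, lung or low oxygen, in which Ndufa4l2 is counted, had a median of 0.033 with 1 below 0 (0.011 with 4 below 0 after quantile normalization and 0 with 4 below 0 after median centring), and mean log2 signals of 3.00 to 6.82, where array medians lay between 6.18 and 6.24. Without detection calls it is not known which of these isoform probe sets read a transcript. The difference between the 2 kinds of subunit was not tested.

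Among the usual subunits Cox5b, which binds zinc, had the smallest p, with log2 signals of 10.39, 10.36 and 10.35 in HDAC10-/- Treg and 10.66, 10.48 and 10.52 in WT Treg (log2 fold change −0.19, adjusted p = 0.266, limma). Cox7a2, the form of subunit 7a found in most tissues, had 10.44, 10.30 and 10.49 in HDAC10-/- Treg and 10.61, 10.54 and 10.60 in WT Treg (log2 fold change −0.17, adjusted p = 0.310). In both genes and in Cox6a1 (−0.097) all HDAC10-/- arrays lay below all WT arrays. These 3 were 17.6% of the complex IV genes, against 10.9% of all probe sets and 17.6% of those brighter than the median. Cox4i1 had a log2 fold change of −0.12, Cox5a 0.043, Cox6b1 0.0067, Cox8a −0.06 and Cox7a2l −0.057.

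In the Cox4, Cox7a and Cox6a sets the tissue form had a higher log2 fold change than the usual form, a difference that was not tested. Cox4i2, the lung form, had 0.11, Cox7a1, the heart and muscle form, 0.14, and Cox6a2 0.32, against −0.12, −0.17 and −0.097 for Cox4i1, Cox7a2 and Cox6a1. Cox6b2, a testis form, had 0.01, close to the 0.0067 of Cox6b1, and the order of these turned round after quantile normalization and in 3 of the 6 fits with 1 array left out. Cox8b and Cox8c had 0.013 and 0.01, and both were below Cox8a after quantile normalization. Cox6a2 had log2 signals of 6.75, 7.15 and 7.03 in HDAC10-/- Treg and 6.69, 6.52 and 6.76 in WT Treg. WT replicate 3 lay just above HDAC10-/- replicate 1, and the adjusted p was 0.269 in limma. Ndufa4, now placed with complex IV as a protein although its symbol belongs to complex I, had a log2 fold change of 0.067, and its paralogue Ndufa4l2 had −0.013.

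ATP synthase held the one gene that passed a test and also the one gene whose HDAC10-/- arrays all lay above the WT arrays. Of its 18 genes 16 had a log2 fold change below 0, with a median of −0.057. Without HDAC10-/- replicate 1 the median was −0.092 with 12 below 0, and after quantile normalization it was −0.032 with 12 below 0. In 5 genes (27.8%), Atp5e, Atp5l, Atp5g2, Atp5pb and Atp5d, the HDAC10-/- arrays lay below the WT arrays, and in Atp5k above. Over all probe sets 10.9% lay below and 9.89% above. Over probe sets brighter than the median these shares were 17.6% and 11.7%. The mean deviation over the complex was −0.054, −0.021 and −0.012 in HDAC10-/- replicates 1, 2 and 3 and 0.076, −0.012 and 0.022 in WT replicates 1, 2 and 3, and WT replicate 2 was at the level of HDAC10-/- replicate 3.

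Atp5e had log2 signals of 8.69, 8.84 and 8.79 in HDAC10-/- Treg and 9.33, 9.13 and 9.11 in WT Treg. All HDAC10-/- arrays were lower, with a mean of 8.77 ± 0.076 in HDAC10-/- Treg and 9.19 ± 0.12 in WT Treg (SD, n = 3 arrays each). The level was 1.33-fold lower in HDAC10-/- Treg, with an adjusted p of 0.0788 in limma (log2 fold change −0.42 ± 0.081, standard error). The call was lost when any 1 of the 6 arrays was left out (adjusted p 0.119 to 0.202), with the methods' t-test (adjusted p = 0.191), after quantile normalization (adjusted p = 0.100), with the mean of its probe sets (adjusted p = 0.121) and when the replicate number was a block (adjusted p = 0.213). A second probe set of Atp5e had 8.16, 8.05 and 8.18 in HDAC10-/- Treg and 8.19, 8.27 and 8.19 in WT Treg. Its groups did not overlap either, but by 0.01, and its log2 fold change was −0.087 (adjusted p = 0.585), so the 2 probe sets differed in size.

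Atp5k, subunit e of the membrane part, which takes part in joining ATP synthases into dimers, had log2 signals of 9.73, 9.41 and 9.51 in HDAC10-/- Treg and 9.28, 9.26 and 9.16 in WT Treg. The groups did not overlap, and the log2 fold change was 0.32 ± 0.092 (standard error), with an adjusted p of 0.186 in limma. Atp5l, subunit g, which sits beside it, had 7.79, 7.81 and 7.76 in HDAC10-/- Treg and 8.00, 7.96 and 7.87 in WT Treg (log2 fold change −0.16, adjusted p = 0.296). These neighbouring subunits thus had opposite signs, and neither passed the test. Atp5j2, a further membrane subunit, was the other gene of the enzyme above 0, with 6.35, 6.36 and 6.71 in HDAC10-/- Treg and 6.54, 6.17 and 6.08 in WT Treg, which overlapped (log2 fold change 0.21, adjusted p = 0.567).

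In the c-ring the differences kept one sign in every fit with 1 array left out, while in the F1 part and the peripheral stalk the sign of single genes turned. With all arrays the 5 genes of the F1 head and central stalk were below 0, with Atp5d at −0.083, the gamma subunit Atp5c1 at −0.06, and the alpha and beta subunits Atp5a1 and Atp5b, which form the catalytic sites, at −0.03 each. The 4 genes of the peripheral stalk had −0.16 for Atp5o, −0.087 for Atp5pb, −0.057 for Atp5j and −0.01 for Atp5h. Without HDAC10-/- replicate 1 Atp5a1 (0.065), Atp5c1 (0.037) and Atp5h (0.13) were above 0, as were Atp5a1 and Atp5h with array weights (0.021 and 0.070) and after quantile normalization (0.0056 and 0.025), and Atp5h without WT replicate 1 (0.018). The 3 genes of the proton-carrying c-ring, which encode the same mature protein, had −0.17 for Atp5g1, −0.16 for Atp5g2 and −0.057 for Atp5g3. Atp5g2 had log2 signals of 12.28, 12.16 and 12.18 in HDAC10-/- Treg and 12.41, 12.37 and 12.32 in WT Treg, without overlap, and Atp5g1 had 6.85, 6.94 and 6.69 in HDAC10-/- Treg and 6.88, 6.86 and 7.24 in WT Treg, with overlap. None of these passed the test, and the adjusted p of Atp5g2 was 0.299 in limma.

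**Figure D3:**
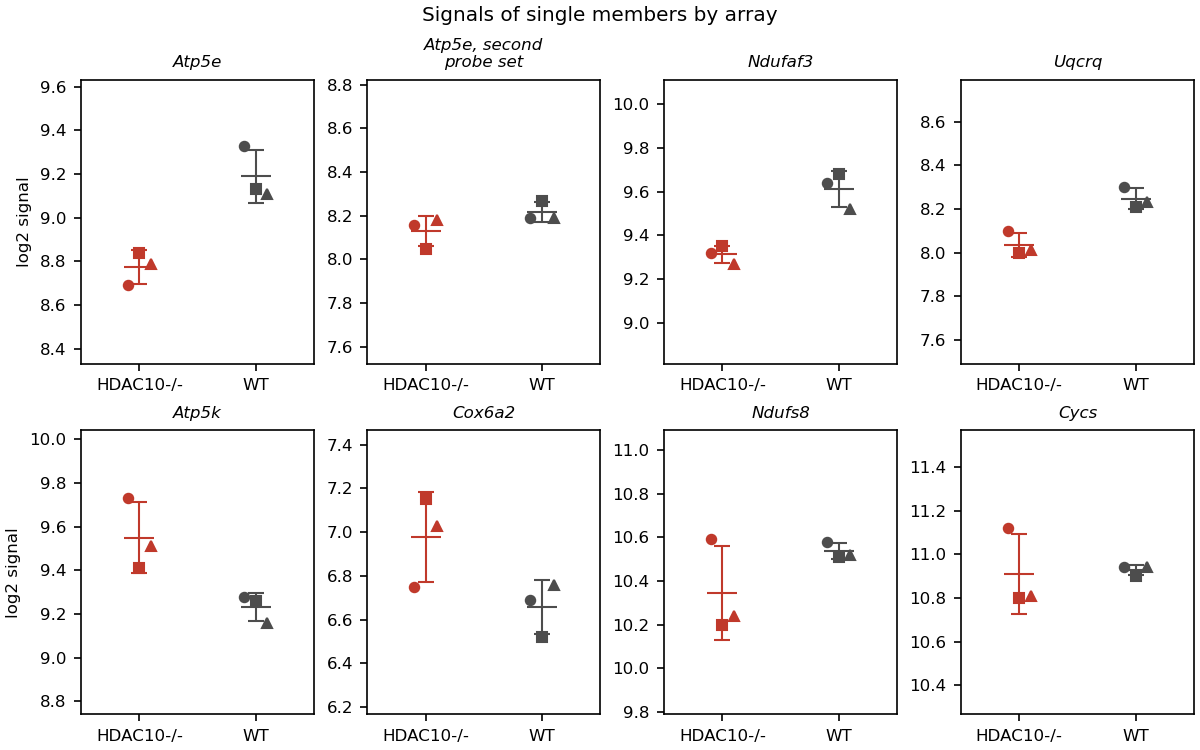
Log2 signals of Atp5e and its second probe set, Ndufaf3, Uqcrq, Atp5k, Cox6a2, Ndufs8 and Cycs in each array, HDAC10-/- in red left of WT in grey, with bars for the mean and SD of 3 arrays and a y axis of equal length in every panel. The genotypes are separate in Atp5e, Ndufaf3, Uqcrq and Atp5k, and HDAC10-/- replicate 1 (circle) lies at or above the WT arrays in Ndufs8 and Cycs.

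The promoters of the members were searched for motifs of factors known to act on such genes. RefSeq promoters of 250 bases before to 50 after the start (GRCm38.p6) were found for 73 of the 91 genes, 78 promoters in all, and compared with all 32851 promoters. On either strand, the letters CGCATGCGC of the NRF1 site were in 11 of the 78 (14.1%, against 1.75% of all promoters), the ETS site CCGGAAG in 19 (24.4%, against 8.86%) and the YY1 site AAGATGGCG in 7 (8.97%, against 1.40%). The CCAAT box CCAAT was in 32 (41.0%, against 37.4%). A match is a description of letters and not of binding, and base composition was not matched. The 100 bases before the start are shown for the called gene Atp5e, for Atp5k, the one gene with all HDAC10-/- arrays above the WT arrays, and for Atp5g2, which shares the NRF1 letters with Atp5k but had a log2 fold change of the other sign. They are read 5′ to 3′ on the strand of the gene, at chr2:174464102-174464201, chr5:108434400-108434499 and chr15:102671048-102671147, all on the minus strand, and capitals mark CCAAT or its reverse complement in Atp5e and the NRF1 letters, which overlap themselves on the other strand, in Atp5k and Atp5g2.
Atp5e: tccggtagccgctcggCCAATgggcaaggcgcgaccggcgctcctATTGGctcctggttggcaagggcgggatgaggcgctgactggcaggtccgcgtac
Atp5k: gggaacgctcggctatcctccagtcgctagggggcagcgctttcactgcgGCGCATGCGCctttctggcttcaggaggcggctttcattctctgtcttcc
Atp5g2: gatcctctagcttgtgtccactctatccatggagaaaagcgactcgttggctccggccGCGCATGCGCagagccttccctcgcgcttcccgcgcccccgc

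The size of the shift was set beside brightness, in bands chosen after the values were seen. Genes with 1 symbol and a mean log2 signal of 8 to 10 had a median log2 fold change of −0.037 and 62.9% were below 0, while the 31 members in that band had −0.057 with 26 below 0 (83.9%). Between 10 and 12 all genes had −0.027 with 62.0% below 0, and the 27 members had −0.06 with 23 below 0 (85.2%). Between 6 and 8 all genes had 0.0033 with 48.3% below 0, and the 22 members had −0.038 with 12 below 0. In the dimmest band, up to 6, the 7 members had a median of 0.01 with 3 below 0, and all genes had 0.023. Genes of a band share arrays and are not independent, and no test was made of these shares.

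**Figure D4:**
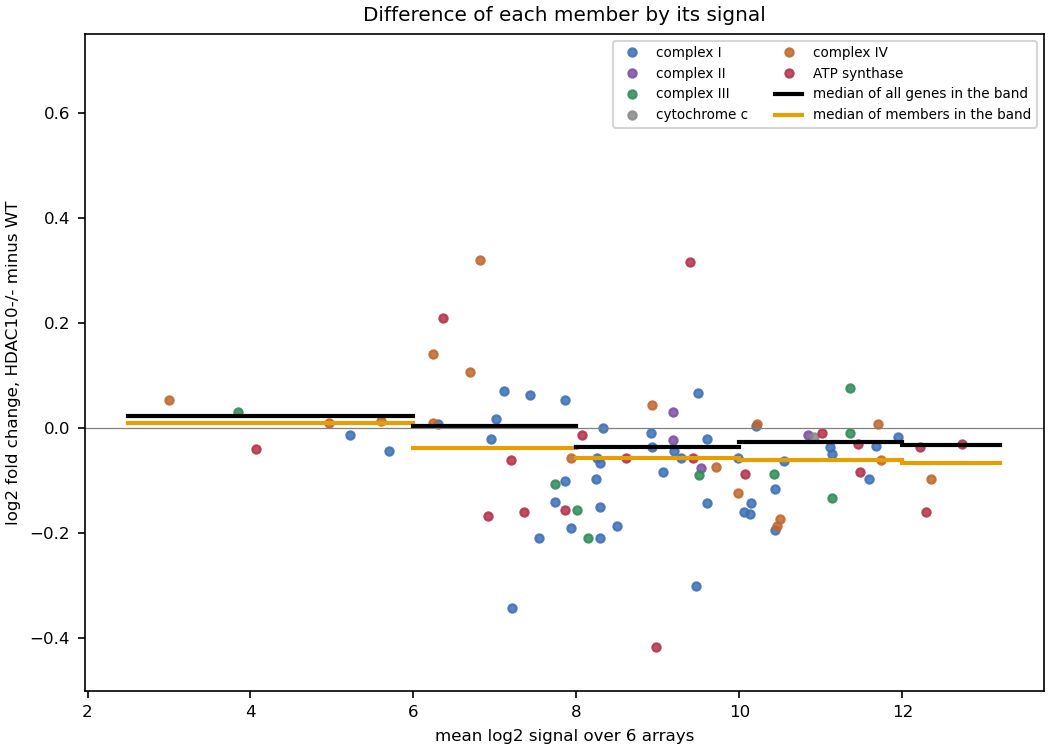
Log2 fold change (HDAC10-/- minus WT, y axis) of each of the 91 genes against its mean log2 signal over the 6 arrays (x axis), coloured by complex. Black bars are the median of all genes with 1 symbol in each band of signal and orange bars the median of the members, which lies below the black bar in every band.

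With all arrays the members varied more between HDAC10-/- than between WT arrays. The SD over 3 arrays had a median of 0.10 in HDAC10-/- Treg and 0.047 in WT Treg, and it was larger in HDAC10-/- Treg for 69 of the 91 genes. Over all genes with 1 symbol the medians were 0.091 in HDAC10-/- Treg and 0.071 in WT Treg. The difference rested on HDAC10-/- replicate 1. Without that array the SD of the remaining HDAC10-/- arrays had a median of 0.035, against 0.035 to 0.049 for pairs of WT arrays. HDAC10-/- replicate 1 alone was the highest of the 6 arrays in 24 members and alone the lowest in 28, together 57.1%, against 40.3% of all genes with 1 symbol and 52.1% of those with a mean signal over 8. WT replicate 1 alone was the highest in 23 members and the lowest in 1. Without HDAC10-/- replicate 1 the log2 fold change was below 0 in 65 of the 91 genes, and over the 6 fits with 1 array left out in 64 to 71.

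Other genes of the pathway were read from lists outside the rule. Of 38 assembly factors for complexes I to IV and ATP synthase under other names 36 were measured, with a median log2 fold change of −0.11, or −0.07 without HDAC10-/- replicate 1. Of these 28 were below 0, against 49.1% of all probe sets and 56.1% of those brighter than the median, among which all 36 lay. At an adjusted p under 0.1, 0 passed the test upwards and 1 downwards (1.25% and 0.757% of all probe sets). This was Bcs1l, the ATPase that puts the Rieske protein into complex III, with log2 signals of 8.55, 8.60 and 8.66 in HDAC10-/- Treg and 8.93, 8.86 and 8.93 in WT Treg (log2 fold change −0.30, standard error 0.060, adjusted p = 0.0821, limma). Its groups did not overlap, but the call was lost when any 1 array was left out (adjusted p 0.103 to 0.271). The call was also lost with the methods' t-test (adjusted p = 0.141), after quantile normalization (adjusted p = 0.106, limma) and with the replicate block (adjusted p = 0.206). Uqcrfs1, the Rieske protein itself, had 7.66, 7.64 and 7.76 in HDAC10-/- Treg and 7.80, 7.78 and 7.80 in WT Treg (adjusted p = 0.462). Of 21 symbols for regulators of mitochondrial biogenesis and mitochondrial DNA, of which Peo1 and Twnk name the same gene, 20 were measured, with a median of −0.013 and 12 below 0, and none passed the test. Tfam, which packs and transcribes mitochondrial DNA, had 8.03, 8.12 and 8.12 in HDAC10-/- Treg and 8.23, 8.32 and 8.31 in WT Treg (log2 fold change −0.20, adjusted p = 0.207). Ppargc1a, a coactivator of respiratory genes, had a log2 fold change of 0.063, the related Pprc1 0.15, Nrf1 0.047 and Gabpa, an ETS factor, −0.077. Atpif1, the inhibitor of ATP synthase, had 0.0033. None of the 13 subunits encoded in mitochondrial DNA had a probe set with 1 symbol, so their transcripts were not read.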

How the data were processed

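CD4+CD25+ Treg RNA of 3 HDAC10-/- and 3 WT samples was hybridised to 1 Mouse Gene 2.0 ST array each. The authors normalized the arrays by RMA in Transcriptome Analysis Console 4.0 and deposited log2 signals for 34472 probe sets, which were used as they stand. Probe sets were named from the platform annotation where it gives 1 symbol, and all 91 members matched the RefSeq gene table (GRCm38.p6) by gene identifier. RMA scales the arrays to each other, so a shift common to all genes cannot be measured from these values, and array medians still ran between 6.18 and 6.24.

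The comparison of HDAC10-/- with WT arrays used limma 3.58.1 in R 4.3.3 (two-sided moderated test, no intensity trend, no robust option, prior degrees of freedom 3.23), with Benjamini-Hochberg adjustment over all probe sets. Genes were counted at an adjusted p under 0.1 with and without the 1.5-fold minimum of the methods. The fit was tested on simulated data. Named are members with an adjusted p under 0.1, the 3 smallest p-values of each complex, the core subunits, isoform sets, members on the chromosome of Hdac10 and the extremes of fold change, and some further members and genes of other lists chosen after their values were seen. Members and lists were chosen with earlier results of these data known. Alternatives were the methods' t-test, array weights, the robust option together with an intensity trend, quantile normalization, median centring, brighter probe sets, probe sets with 1 symbol, a replicate block, other thresholds, the mean of a gene's probe sets, membership by current symbol, subunits alone, and each array left out. Labels name 3 independent samples per genotype but not separate animals, so p-values measure the spread between these samples. Python 3.11.15 with pandas 2.3.3 and numpy 2.4.6 was used for counts and motif searches.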

Additional observations from a re-analysis of the deposited data

How the results depend on the processing

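With 3 arrays per genotype and standard errors near 0.075, differences of the size seen here are at the limit of the test. The number of members lower at an adjusted p under 0.1, 1 in the report, was 3 with an intensity trend and the robust option (Atp5e, Ndufaf3, Atp5g2), 2 with array weights, median centring or probe sets with 1 symbol (Atp5e, Ndufaf3), 5 among brighter probe sets (also Uqcrq, Ndufv3 and Ndufa8), 0 after quantile normalization (Atp5e adjusted p = 0.100), with a replicate block, at an adjusted p under 0.05 and with the mean of a gene's probe sets, and 0 to 1 with 1 array left out. The methods' t-test called 1, Ndufa8 (adjusted p = 0.084), and not Atp5e. The number higher, 0 in the report, was 1 with the intensity trend and among brighter probe sets (Atp5k). Members lower over 1.5-fold, 0 in the report, were 1 without the fold minimum. The replicate numbers did not pair the samples (deviations of same-numbered arrays correlated at −0.0032, 0.00063 and −0.024).

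Among all probe sets 146 were higher and 90 lower. The higher count was 20 with the methods' t-test, 96 with the replicate block, 431 without the fold minimum and 68 to 177 with 1 array left out (68 without WT replicate 1). The lower count was 26 with the t-test, 33 among probe sets with 1 symbol, 261 without the fold minimum and 58 to 106 with 1 array left out (58 without HDAC10-/- replicate 2). The limma and t-test counts here are below those the study reports from its own Student t-test at the same thresholds. The median log2 fold change of all members was −0.029 after quantile normalization and −0.09 after median centring, which moved all probe sets to a median of −0.033 and 59.5% below 0, against 49.1% in the report. Members below 0 were 61 and 79 of 91 in these fits. The median of complex I was −0.09 after centring and −0.081 to −0.06 with 1 array left out, and that of complex IV was −0.017 after quantile normalization, −0.027 after centring, −0.025 among brighter probe sets, −0.067 over usual subunits alone and −0.032 to 0.027 with 1 array left out. Median centring moved every log2 fold change by the same −0.033. Why the other values moved was not tested. Several alternatives leave the log2 fold change itself as it was, so direction could not change under them. These are the methods' t-test, the intensity trend with the robust option, brighter probe sets, probe sets with 1 symbol and the replicate block. The mean of a gene's probe sets likewise changes nothing where a gene has only 1. With these included, 632 of 701 values of named members kept their direction and side of the threshold. Another 13 passed it where the report's fit did not, and 10 fell short of it. Of the rest, 2 were exactly 0 and 44, in 15 genes that did not pass the test, had the opposite sign.

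With 1 array left out the log2 fold changes of such genes ran from −0.095 to 0.065 for Atp5a1, −0.11 to 0.037 for Atp5c1, −0.15 to 0.088 for Cox6b1, −0.078 to 0.087 for Cox6b2, −0.055 to 0.095 for Cox8b, −0.038 to 0.042 for Cox8c, −0.12 to 0.038 for Cycs, −0.05 to 0.045 for Ndufa4l2, −0.11 to 0.048 for Ndufa6, −0.068 to 0.012 for Ndufs7, −0.058 to 0.057 for Sdha, −0.095 to 0.03 for Sdhc, −0.047 to 0.053 for Uqcrc2 and −0.073 to 0.11 for Uqcrh-ps1. The sign also turned with array weights for Atp5a1 (0.021), Cox6b1 (−0.077), Cox8c (−0.0045), Ndufa4l2 (0.026), Sdha (0.024) and Uqcrc2 (0.026), after quantile normalization for Atp5a1 (0.0056), Cox6b2 (−0.02), Cox8b (−0.017), Cox8c (−0.028), Cycs (0.0081), Ndufs7 (0.049), Sdha (0.02), Sdhc (0.014) and Uqcrc2 (0.027), and after median centring for Cox6b1 (−0.027), Cox6b2 (−0.023), Cox8b (−0.02), Cox8c (−0.023), Sdhb (−0.0033) and Uqcrh-ps1 (−0.0033).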

Other observations

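Of the 91 members 10 had more than 1 probe set. The probe set used and the other one had log2 fold changes (HDAC10-/- minus WT) of −0.083 and −0.15 for Atp5d, −0.16 and −0.15 for Atp5g2, −0.14 and −0.18 for Ndufa8, −0.057 and −0.097 for Ndufa12, −0.19 and −0.23 for Cox5b, and −0.01 and −0.09 for Atp5h. In Ndufa11 the signs differed, at −0.16 and 0.067, and in Cox7b they were 0.0067 and −0.23. None of these second probe sets passed the test, and the lowest adjusted p among them was 0.339 in limma, for Atp5g2. Cycs had 5 probe sets, 2 of them with identical values, at −0.08 to 0.02.

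The members on chromosome 15, which holds Hdac10, were Ndufb9 (log2 fold change −0.16), Cyc1 (−0.087), Ndufa6 (−0.057), Uqcrh-ps1 (0.03) and Atp5g2 (−0.16). Ndufa6 was the nearest to Hdac10, at 88 genes in the order of GRCm38.p6, counting only genes with 1 symbol on the array. None of these members passed the test, with adjusted p of 0.299 to 0.919 in limma.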
